A study of Rattus norvegicus with 8 samples.

Results

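Small leucine-rich proteoglycans (SLRPs) are secreted proteins with a curved core of leucine-rich repeats, and most of them carry chains of chondroitin, dermatan or keratan sulfate. They bind collagen while it assembles and are known to set the diameter and spacing of fibrils, and several also bind growth factors. The periodontal ligament (PDL), which ties the tooth root to the alveolar bone, is built largely of collagen fibres, and asporin is known there as PDL-associated protein 1. The 9 genes described here are those of the family best known from collagen fibrils, chosen by name and with earlier results of these data known. They are Dcn (decorin), Bgn (biglycan) and Aspn (asporin) of class I, Fmod (fibromodulin), Lum (lumican), Kera (keratocan), Prelp (PRELP) and Omd (osteomodulin, or osteoadherin) of class II, and Ogn (osteoglycin, or mimecan) of class III. All 9 were among the 17337 genes of the count table.

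RNA was sequenced from rat (Rattus norvegicus) PDL of the cervical region, collected by laser micro-dissection and made into libraries with a SMARTer Ultra Low input kit from total RNA. The groups were 4 animals aged 28 days (P28) and 4 aged 18 days (P18), all untreated and grown normally per the labels, which give no strain or sex. The series compares the ligament across the establishment of occlusal contact, which falls between these ages, and age and contact cannot be told apart. Each library was taken as 1 animal. Total counts ran from 5252693 to 17803006 at P28 and from 10863769 to 26645656 at P18. P28 replicate 4 was the shallowest and stood apart, at 163 on the first principal component (26.9% of the variance), where the other libraries lay between -40.9 and 3.60. A count of 0 allows up to 3 counts, from 0.108 CPM (library-size-scaled counts, with TMM factors) in the deepest library to 0.623 CPM in the shallowest, for counting error only.

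Of the 9 genes, 5 carried almost all of the family's counts and 4 were close to 0 at both ages. Fmod was the 1 member called, and it was higher at P28. Lum, Dcn and Bgn were abundant at both ages, and Prelp was low. Kera, Ogn, Aspn and Omd together had 26 counts among 123872086 in the 8 libraries. They did not pass the filter on low counts and were not tested.

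In the edgeR quasi-likelihood test over 10472 genes, 1 of the 5 tested members was called higher at P28 and 0 lower, at an adjusted p under 0.05. Over all genes tested, 0.936% were called in either direction, 0.516% higher and 0.420% lower. All 5 tested members had a log2 fold change above 0, where 50.3% of all genes did, but that of Lum (0.04) turned below 0 with voom, with the replicate block and without P28 replicate 3, P18 replicate 1 or P18 replicate 2. The members' median was 0.49 against 0.01 over all genes. At an unadjusted p under 0.05 the member called was again 1 of 5, where 14.5% of all genes passed. Fmod alone of the 5 had P28 and P18 libraries that did not overlap, in the higher direction, as did 4.91% of all genes (10.4% in either direction).

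Fmod encodes fibromodulin, a keratan sulfate proteoglycan that binds type I collagen and is known for guiding fibril growth in tendon. It had 406, 280, 388 and 304 CPM in P28 replicates 1 to 4, against 23.2, 36.8, 13.3 and 103 CPM in P18 replicates 1 to 4. Every P28 library lay above every P18 library, and P18 replicate 4 came nearest to the P28 range. The log2 fold change was 2.97 ± 0.52 (SE), a 7.82-fold difference with a 95% interval of 3.58 to 17.1 (edgeR adjusted p = 0.0264). By p-value Fmod ranked 34 among the genes tested. Its spread was also unlike at the ages, with a coefficient of variation of 18.0% at P28 and 91.7% at P18. At P18 the highest library had 7.73 times the CPM of the lowest, and at P28 1.45 times. The call ended without P28 replicate 1 (edgeR adjusted p = 0.0917), P28 replicate 3 (0.0686), P18 replicate 1 (0.0580) or P18 replicate 2 (0.102). The log2 fold change stayed between 2.66 and 3.82 over the 8 fits that left out 1 library, and was 3.03 (adjusted p = 0.0302) without P28 replicate 4.

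**Figure D1:**
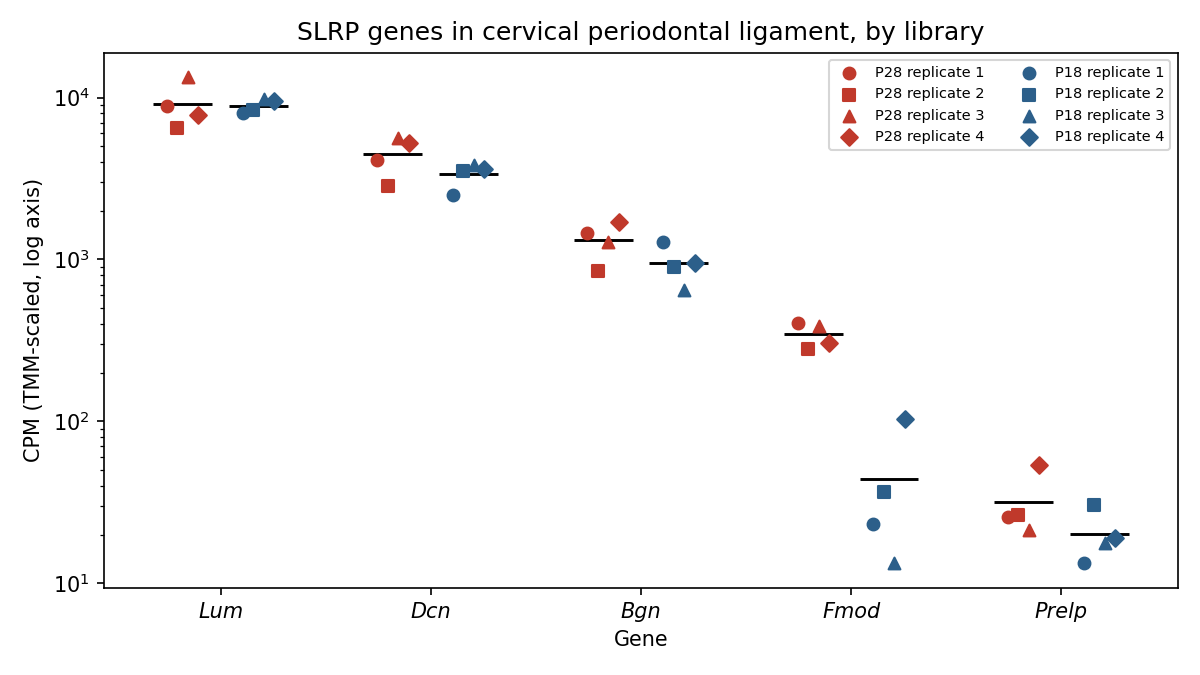
CPM on a log axis for the 5 tested SLRP genes, with 1 point per library (P28 red, left of P18 blue; 4 animals each) and a black line at the mean. The P28 and P18 points of Fmod lie apart (280 to 406 against 13.3 to 103 CPM), while those of Lum, Dcn, Bgn and Prelp overlap.

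In bulk captures, fewer cells of a type and less RNA per cell cannot be told apart. Markers of several cell types and states also differed between the ages, some higher and some lower at P28. The summed level of the PDL fibroblast list (9 of 10 markers in the table, none at 0 in all 8 libraries) ran from 129627 to 177126 CPM at P28 and from 82789 to 127420 CPM at P18. That sum was carried by Col1a1, Col3a1 and Postn, none of which was called. The 1 called gene of the list was Tnmd, the transmembrane tendon and ligament marker tenomodulin, which was lower at P28, at 104 ± 36.8 CPM against 559 ± 119 CPM at P18 (SD, n = 4 each; edgeR adjusted p = 0.00608). The osteoblast and cementoblast list (10 of 10, none at 0) summed to 5806 to 10337 CPM at P28 and 3866 to 5916 CPM at P18, carried by Ibsp, Bglap and Alpl. Of its 9 tested members 6 had a log2 fold change above 0 and 3 (Alpl, Sp7 and Runx2) below, and Bglap, for osteocalcin, was called higher (2.21 ± 0.38, adjusted p = 0.0264).

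The proliferation list (6 of 6, none at 0) lay at 228 to 325 CPM at P28 and 417 to 548 CPM at P18, with Mcm10 called lower (edgeR adjusted p = 0.0401). The stress list (7 of 7, none at 0) lay at 273 to 885 CPM at P28 and 190 to 266 CPM at P18. All 7 genes had a log2 fold change above 0, and the small heat shock gene Hspb1 was called higher (edgeR adjusted p = 0.0401). Hspb1 had 128, 380, 275 and 81.8 CPM in P28 replicates 1 to 4, and 33.1 to 65.1 CPM at P18. Without Hspb1 the sums of the ages would overlap. The enamel organ list (7 of 7, none at 0) lay at 5.61 to 637 CPM at P28 and 15.0 to 4849 CPM at P18. Of its 4 tested genes all had a log2 fold change below 0 and 2 were called lower, Ambn (2.39 ± 1.62 CPM at P28 and 799 ± 1058 CPM at P18, adjusted p = 0.0204) and Amtn (0 CPM in 3 of the 4 P28 libraries, adjusted p = 0.0188). The osteoclast list (8 of 10, none at 0) lay at 1029 to 7824 CPM at P28 and 1453 to 1737 CPM at P18, with Acp5 called higher (adjusted p = 0.0494). The chondrocyte list (7 of 8, none at 0) lay at 87.9 to 255 CPM at P28 and 118 to 240 CPM at P18. Of its 3 tested genes 1, Acan, had a log2 fold change above 0 (0.85 ± 0.55) and 2 had one below. The link protein gene Hapln1 was called lower (11.8 ± 3.66 CPM at P28 and 63.0 ± 4.52 CPM at P18, edgeR adjusted p = 0.0157). The cartilage genes Col2a1, Col9a1 and Matn1 had only 4, 3 and 5 counts over all libraries and were not tested. Among the 8 fits that left out 1 library, the call held in 8 for Tnmd, 6 for Ambn, 5 for Amtn, 5 for Hapln1, 4 for Bglap, 2 for Acp5, 2 for Mcm10 and 1 for Hspb1. The call ended without P28 replicate 1 or 3 for Ambn (edgeR adjusted p up to 0.0917), without these or P18 replicate 2 for Amtn (up to 0.0873), and without P28 replicate 1 or P18 replicate 2 or 4 for Hapln1 (up to 0.0610). It ended without P28 replicate 1 or P18 replicate 2, 3 or 4 for Bglap (up to 0.0979), and without P28 replicate 1 or 3 or any P18 library for Acp5 (up to 0.173). For Mcm10 it ended without replicate 1, 2 or 3 of either age (up to 0.144), and for Hspb1 without any library other than P28 replicate 4 (up to 0.137). With voom, Ambn (adjusted p = 0.557), Amtn (0.266), Acp5 and Mcm10 were not called. With the replicate block, the calls of Hapln1 (edgeR adjusted p = 0.0633), Hspb1 (0.0960), Ambn (0.103), Mcm10 (0.125) and Acp5 (0.151) ended. Those of Tnmd, Bglap and Amtn held. Acp5 also missed the threshold with upper-quartile scaling (edgeR adjusted p = 0.0517) and with the filter of 10 counts in 4 libraries (0.0506). Of the 16 marker lists of cells and states, the fibroblast, proliferation and stress lists had sums without overlap between the ages. For the stress list this held only with Hspb1 in the sum. The part of these markers in the result for Fmod was not tested.

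Lum encodes lumican, a keratan sulfate proteoglycan of cornea, skin and tendon that is known to share a collagen binding site with fibromodulin. It was the most counted member, with 8855, 6522, 13331 and 7835 CPM in P28 replicates 1 to 4, against 7999, 8329, 9724 and 9546 CPM in P18 replicates 1 to 4. The P28 libraries reached both above and below the P18 range. By mean CPM Lum ranked 5 among all genes at P28 and 5 at P18. Its log2 fold change was 0.04 ± 0.22, with a 95% interval of -0.44 to 0.51 (edgeR adjusted p = 0.962). Without P28 replicate 3 it was -0.20. The 95% interval leaves out a change of the size of that of Fmod.

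The starts of Fmod and Lum are shown because, of these related class II genes, Fmod was called and Lum was not. Each sequence runs from 250 bases before the start of the gene to 50 after it (RefSeq, build GRCr8; the counts were made on rn6). Fmod lies at chr13:48045317-48045616 and Lum at chr7:34245456-34245755, both on the + strand. Capitals mark the letters CAGAC on either strand, the core of the sites that SMAD proteins of the TGF-beta pathway are known to bind.
Fmod: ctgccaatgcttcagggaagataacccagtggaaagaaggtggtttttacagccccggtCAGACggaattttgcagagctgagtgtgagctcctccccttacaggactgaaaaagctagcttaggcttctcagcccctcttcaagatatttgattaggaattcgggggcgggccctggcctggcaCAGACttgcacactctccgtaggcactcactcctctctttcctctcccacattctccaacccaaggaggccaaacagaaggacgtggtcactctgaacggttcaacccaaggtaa
Lum: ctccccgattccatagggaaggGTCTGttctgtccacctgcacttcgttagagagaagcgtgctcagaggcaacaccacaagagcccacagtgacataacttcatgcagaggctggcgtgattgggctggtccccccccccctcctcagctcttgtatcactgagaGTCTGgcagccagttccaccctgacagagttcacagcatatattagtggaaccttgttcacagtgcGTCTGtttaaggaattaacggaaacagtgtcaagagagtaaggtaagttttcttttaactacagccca
Fmod has 2 matches on the printed strand and Lum 3 on the other strand, where they read GTCTG. No match overlaps another or an E-box. Of 33469 promoters of the same length, 50.1% hold at least 1 such match. The E-box letters CANNTG, of the kind bound by scleraxis and other basic helix-loop-helix factors, occur 0 times in the Fmod window and 1 time in that of Lum, and in 72.1% of all promoters. The letters TATAAA occur in neither window on either strand, and in 14.2% of all promoters. These matches describe the letters in the windows and show no binding.

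The ratio of Fmod to Lum counts within a library needs no scaling between libraries. Fmod had 4.59, 4.30, 2.91 and 3.87 counts per 100 Lum counts in P28 replicates 1 to 4, against 0.290, 0.442, 0.137 and 1.08 in P18 replicates 1 to 4. The ages did not overlap. On the log2 scale the ratio was -4.69 ± 0.29 at P28 and -8.07 ± 1.24 at P18 (SD, n = 4 each), a difference of 3.38. The exact permutation p was 0.0286 (2-sided), the smallest that 4 against 4 libraries can give, and 0.0571 after adjustment over the 2 ratios tested, which misses 0.05. The ratio of Aspn to Dcn had been planned as well, but was left out and is not in the adjustment. The Fmod to Lum ratio rests on the same Fmod counts as the call of Fmod, so it is no separate result.

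Dcn encodes decorin, which carries a single chondroitin or dermatan sulfate chain and binds collagen fibrils and TGF-beta. It had 4118, 2852, 5654 and 5227 CPM in P28 replicates 1 to 4, against 2500.02, 3526, 3825 and 3607 CPM in P18 replicates 1 to 4. P28 replicate 2 lay within the P18 range and the other P28 libraries above it. The log2 fold change was 0.41 ± 0.23, with a 95% interval of -0.09 to 0.91 (edgeR adjusted p = 0.456). Dcn ranked 11 among all genes by mean CPM at P28 and 10 at P18.

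Bgn encodes biglycan, the nearest relative of decorin, which usually carries a pair of such chains and is found in bone and tendon. It had 1451, 852, 1290.5 and 1711 CPM in P28 replicates 1 to 4, against 1289.9, 895, 651 and 949 CPM in P18 replicates 1 to 4. The ranges of the ages overlapped. The log2 fold change was 0.49 ± 0.25, with a 95% interval of -0.06 to 1.03 (edgeR adjusted p = 0.409). Bgn had 22.8 to 35.2 counts per 100 Dcn counts in the P28 libraries and 17.0 to 51.6 in the P18 libraries. The log2 ratio of Bgn to Dcn was -1.75 ± 0.27 at P28 and -1.85 ± 0.66 at P18 (SD, n = 4 each; exact permutation p = 0.771, 2-sided, also after adjustment).

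**Figure D2:**
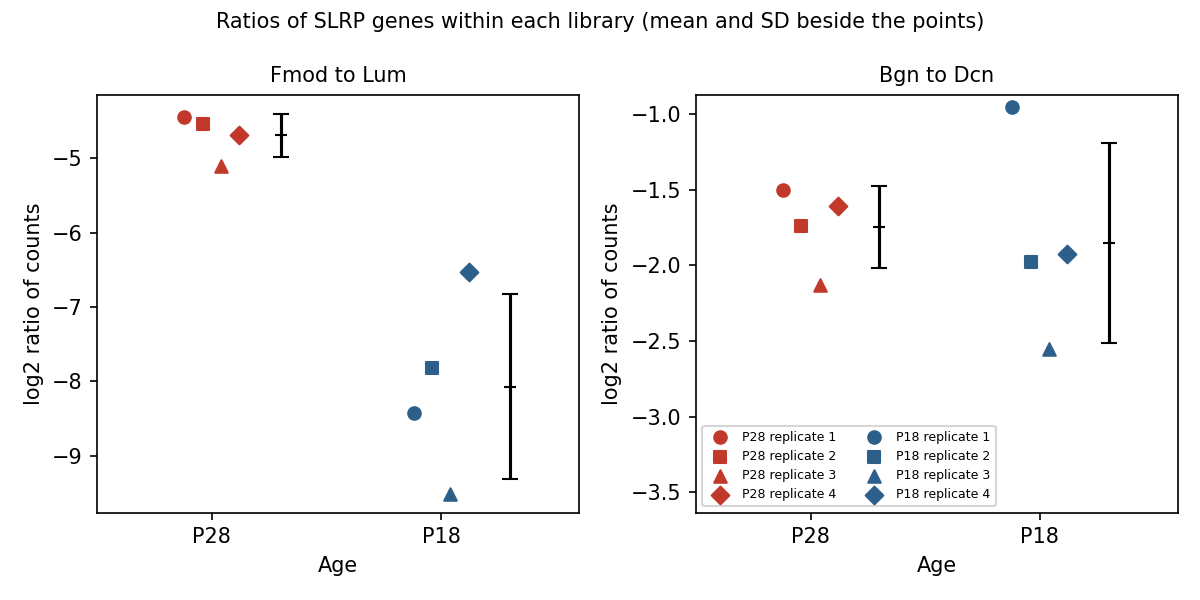
Log2 ratio of counts within each library for Fmod to Lum (left) and Bgn to Dcn (right), 1 point per library, with mean and SD (n = 4) beside the points. The Fmod to Lum ratio averages -4.69 at P28 and -8.07 at P18 without overlap, and the Bgn to Dcn ratio averages -1.75 at P28 and -1.85 at P18 with overlap.

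Prelp encodes PRELP, a class II protein with a basic, arginine- and proline-rich end that binds heparan sulfate, thought to tie basement membranes to the tissue beneath. It had 25.8, 26.4, 21.4 and 54.0 CPM in P28 replicates 1 to 4, against 13.4, 30.6, 17.8 and 19.1 CPM in P18 replicates 1 to 4. P28 replicate 4 was far above the other P28 libraries. The log2 fold change was 0.65 ± 0.46, with a 95% interval of -0.35 to 1.66 (edgeR adjusted p = 0.564), and 0.28 (adjusted p = 0.805) without P28 replicate 4. Prelp and Fmod are neighbouring coding genes in the RefSeq annotation of GRCr8.

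**Figure D3:**
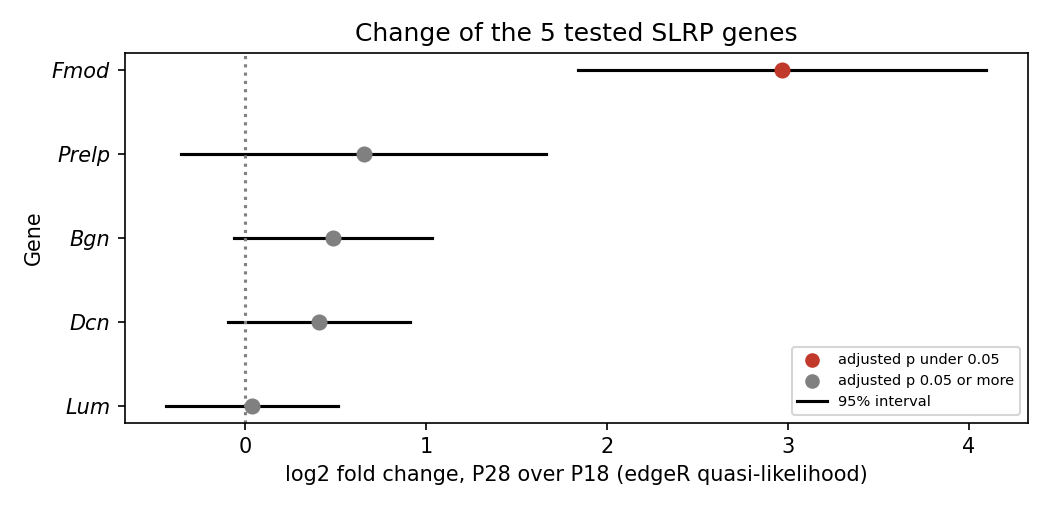
Log2 fold change of P28 over P18 (edgeR quasi-likelihood fit) with its 95% interval for the 5 tested SLRP genes. The interval of Fmod (1.84 to 4.10) lies above 0 and those of Prelp, Bgn, Dcn and Lum include 0.

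A change that misses the threshold does not show equal levels here. Counts were simulated from these libraries for P28 against P18 (10218 genes tested per draw, 3 draws). In them 8.33% of genes changed 2-fold and 56.7% of genes changed 4-fold were called. These percentages pool many genes and are not those of single members. Lum, Dcn and Bgn had smaller SEs (0.22, 0.23 and 0.25) than the median of 0.49, and Prelp (0.46) had one near it. The intervals of Lum (-0.44 to 0.51) and Dcn (-0.09 to 0.91) leave out a 2-fold change. Those of Bgn (-0.06 to 1.03) and Prelp (-0.35 to 1.66) include a 2-fold rise.

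The 4 members near 0 included Aspn, a gene known as a PDL marker and also expressed in cartilage and other connective tissues. Asporin is known to bind collagen and to hold back mineralization in the PDL. Its gene had 0 counts in each of the 4 P28 libraries and 1, 2, 1 and 0 counts in P18 replicates 1 to 4. Omd, for a keratan sulfate proteoglycan of bone known to bind osteoblasts, had 1 count in P28 replicate 1 and 0 in the other 7 libraries. Ogn, for a small class III protein of bone and connective tissue, had 3, 3, 2 and 0 counts in P28 replicates 1 to 4, against 1, 1, 2 and 4 in P18 replicates 1 to 4. Kera, for a proteoglycan best known from the corneal stroma, had 0, 1, 1 and 0 counts in P28 replicates 1 to 4, against 1, 1, 0 and 1 in P18 replicates 1 to 4. No member of this group passed 4 counts in any library, so no fold change is given.

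Markers of PDL fibroblasts differed widely in level in the same libraries. Col1a1 averaged 72172 ± 9076 CPM at P28 and 53215 ± 13439 CPM at P18 (SD, n = 4 each), and Postn, for periostin, 20813 ± 8025 CPM at P28 and 15300.0 ± 847 CPM at P18. Col1a2, whose product joins that of Col1a1 in type I collagen, averaged only 29.03 ± 13.4 CPM at P28 and 15.996 ± 5.95 CPM at P18, and the cause was not tested. Scx, for the tendon factor scleraxis, averaged 61.5 ± 75.7 CPM at P28 and 26.3 ± 5.40 CPM at P18. In the RefSeq annotation of GRCr8, Ogn, Omd and Aspn follow each other inside the span of Cenpp, a centromere protein gene on the opposite strand, and Kera lies between Lum and Epyc with no such host. Cenpp has no row under that symbol in the count table, so its level cannot be given. Of 189 genes in the count table that lie within a coding gene on the other strand in that annotation, 41 (21.7%) had at most 4 counts in every library, against 2240 of 11435 (19.6%) of those that do not. That comparison took whole gene spans in GRCr8, while the counts were made on rn6, so it cannot decide for these 3 genes. Whether the counting or the annotation used for the table bears on these 3 genes was not tested, and the strand setting is not given in the sources used here. Their low counts are therefore given as counts in this table and not as absence of the RNA.

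The family as a whole took a similar share of each library's counts at both ages, 1.44% ± 0.30 at P28 and 1.395% ± 0.15 at P18 (SD, n = 4 each). By library the share was 1.42%, 1.11%, 1.84% and 1.39% in P28 replicates 1 to 4, against 1.21%, 1.34%, 1.54% and 1.496% in P18 replicates 1 to 4. The P18 range lay within the P28 range.

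Within the family, Fmod held a larger share and Lum a smaller one at P28, with no overlap between the ages. Counts were not divided by transcript length, so these shares describe counts and not molecules, and they add up to 100% in each library. Fmod held 2.74%, 2.66%, 1.88% and 2.01% of the family's counts in P28 replicates 1 to 4, against 0.196%, 0.287%, 0.0934% and 0.723% in P18 replicates 1 to 4. Lum held 59.6%, 61.9%, 64.4% and 51.8% in P28 replicates 1 to 4, against 67.6%, 65.0%, 68.3% and 67.1% in P18 replicates 1 to 4. The gap between the ages for Lum was small, from 64.4% in P28 replicate 3 to 65.0% in P18 replicate 2. The mean difference for Lum was -7.58 percentage points, and -5.02 without P28 replicate 4.

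Dcn averaged 29.2% ± 3.60 of the family's counts at P28 and 25.2% ± 2.87 at P18 (SD, n = 4 each). P28 replicate 4, at 34.5%, was above the other P28 libraries (27.1% to 27.7%), and the difference between the ages was 3.95 percentage points with it and 2.15 without it. Bgn averaged 8.85% ± 2.18 at P28 and 7.28% ± 2.64 at P18. Prelp averaged 0.221% ± 0.109 at P28 and 0.153% ± 0.0578 at P18. The libraries of the ages overlapped for Dcn, Bgn and Prelp, and no share was tested.

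**Figure D4:**
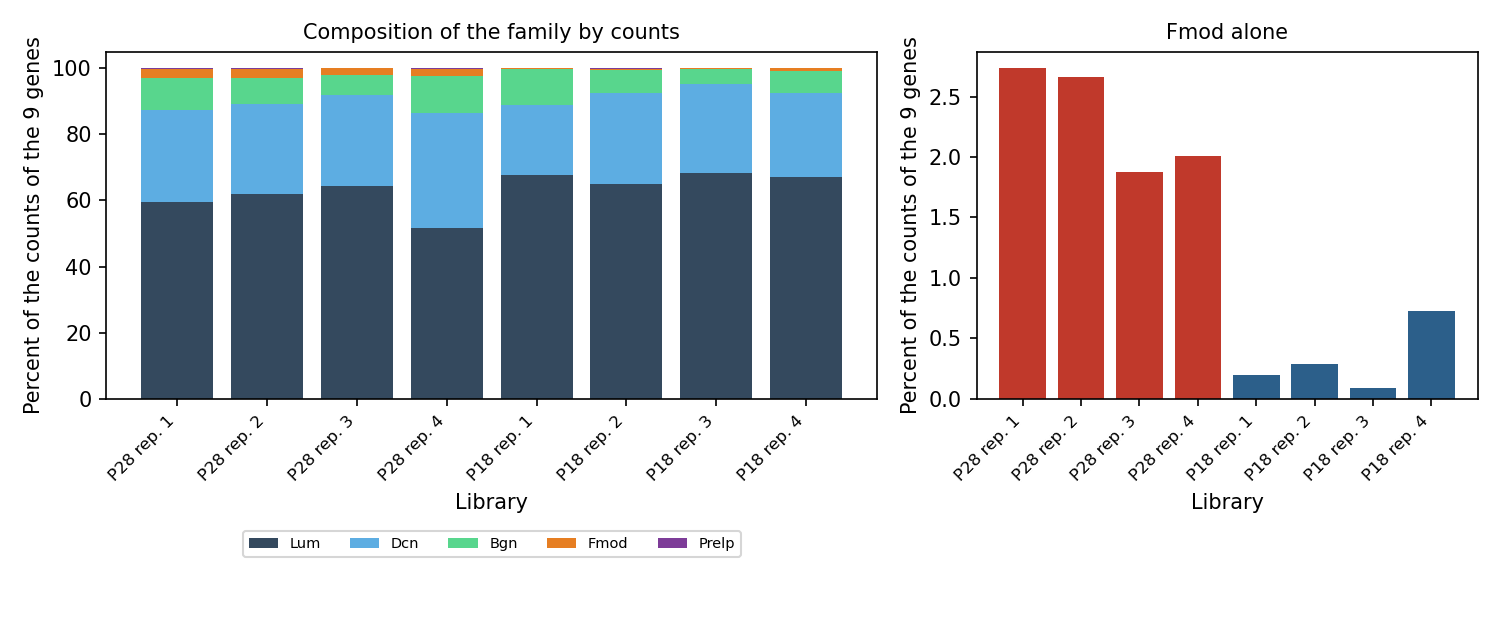
Left, percent of the counts of the 9 SLRP genes held by Lum, Dcn, Bgn, Fmod and Prelp in each library (P28 left of P18; the other 4 genes are too few to see). Right, the share of Fmod alone, 1.88% to 2.74% in P28 libraries and 0.0934% to 0.723% in P18 libraries.

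The genes with the profile nearest to that of Fmod were C1qtnf3, Spp1, Larp6, Kcnma1 and Mt1a. Likeness was the root mean square distance between log2 CPM, centred on the P18 mean, over the 8 libraries, among 8513 genes with a mean log2 CPM of at least 3. The distances were 0.90, 0.90, 0.94, 0.96 and 0.98 in that order, where the median gene lay at 2.60. Spp1 encodes osteopontin, a phosphoprotein of bone and cementum, and had 334, 245, 718 and 80.8 CPM in P28 replicates 1 to 4, against 37.3, 63.2, 9.72 and 68.1 CPM in P18 replicates 1 to 4. C1qtnf3 encodes a secreted C1q/TNF-related protein and had 108, 86.3, 252 and 66.7 CPM in P28 replicates 1 to 4, against 28.0, 21.8, 3.62 and 62.5 CPM in P18 replicates 1 to 4. These genes were chosen for their likeness, so that their shared pattern is no separate result. P18 replicate 4 was the highest P18 library and P18 replicate 3 the lowest for Fmod, Spp1, C1qtnf3 and Larp6, while P18 replicate 1 was the highest for Kcnma1 and Mt1a and P18 replicate 4 the lowest for Mt1a. Larp6 encodes an RNA-binding protein known to bind type I collagen mRNAs, and averaged 42.3 ± 13.03 CPM at P28 and 11.3 ± 7.85 CPM at P18 (SD, n = 4 each). Kcnma1 encodes a potassium channel subunit and Mt1a a metallothionein. None of the 5 was called (edgeR adjusted p from 0.0579 for Spp1 to 0.279 for Kcnma1).

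**Figure D5:**
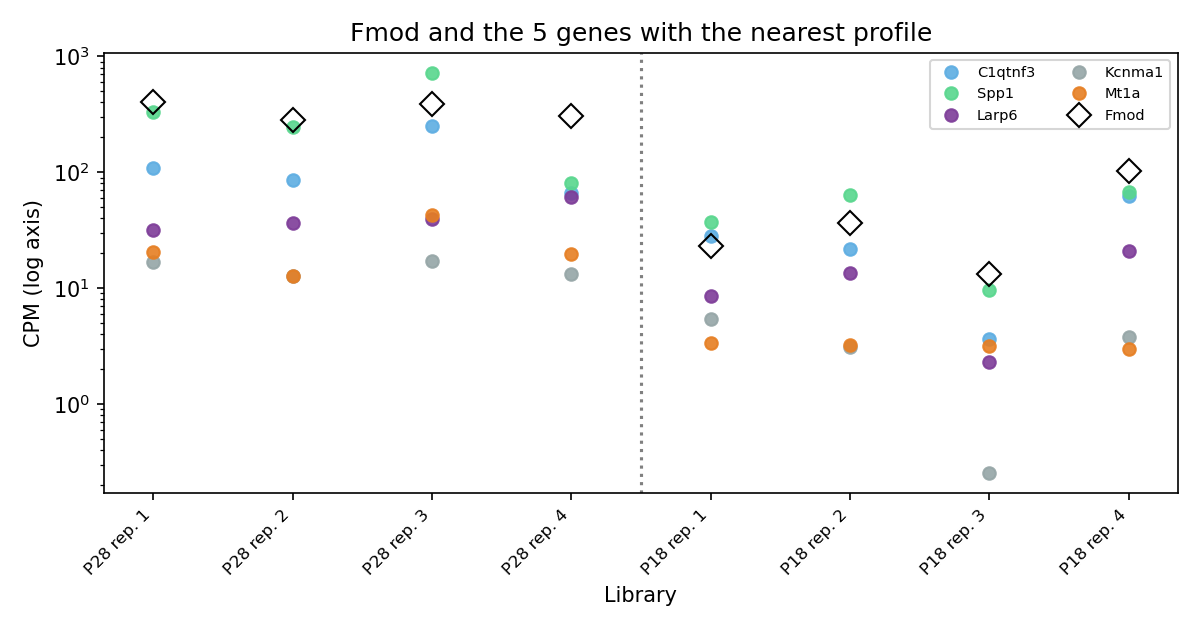
CPM on a log axis in each library (P28 left of the dotted line, P18 right) for Fmod, open diamonds, and the 5 genes with the nearest profile, filled points. In P18 replicate 3, Fmod (13.3 CPM), Spp1 (9.72 CPM) and C1qtnf3 (3.62 CPM) are at their lowest.

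Of the other SLRP genes, 3 of 9 were tested and 0 were called. Tsku, for tsukushi, a secreted protein that binds BMPs, lay at 61.3 ± 12.6 CPM at P28 and 89.7 ± 14.5 CPM at P18 (log2 fold change -0.55 ± 0.25, edgeR adjusted p = 0.336). Epyc, for epiphycan of growth plate cartilage, lay at 2.88 ± 1.77 CPM at P28 and 7.32 ± 4.999 CPM at P18 (-1.34 ± 1.06, adjusted p = 0.618).

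Genes that build and sulfate the chains of these proteins held no call. Of 6 tested genes of the linker that joins a chain to the core protein, 0 were called, with 2 log2 fold changes above 0 and 4 below. B3gat3, which adds the last sugar of the linker, lay at 254 ± 51.1 CPM at P28 and 137 ± 20.9 CPM at P18 without overlap (log2 fold change 0.89 ± 0.21, edgeR adjusted p = 0.0753), and B3galt6, which adds a galactose before it, had a log2 fold change of -1.57 ± 0.58 (adjusted p = 0.229). Of 13 tested genes of chondroitin and dermatan sulfate synthesis, 0 were called, with 4 above 0 and 9 below and a median of -0.69. The lowest p-values there were those of the chain polymerizing factor gene Chpf2 (log2 fold change -0.76 ± 0.26, adjusted p = 0.186) and the sulfotransferase gene Chst12 (-0.74 ± 0.29, adjusted p = 0.252).

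Of 9 tested keratan sulfate genes, 0 were called, with 4 log2 fold changes above 0 and 5 below and a median of -0.31. Fut8, the fucosyltransferase of N-glycan cores, lay at 7.16 ± 5.89 CPM at P28 and 41.1 ± 18.3 CPM at P18 (edgeR adjusted p = 0.117), and the sialyltransferase gene St3gal2 at 40.2 ± 1.597 CPM at P28 and 21.3 ± 2.70 CPM at P18 (adjusted p = 0.235). Neither gene overlapped between the ages. Of 6 tested genes of sulfate donor supply and tyrosine sulfation, a change that fibromodulin and osteomodulin carry near one end, 0 were called. Papss1, which makes the sulfate donor PAPS, lay at 75.5 ± 7.68 CPM at P28 and 139 ± 20.97 CPM at P18 without overlap (log2 fold change -0.88 ± 0.21, adjusted p = 0.0753). Slc35b2, which carries PAPS into the Golgi, had a log2 fold change of -0.44 ± 0.24 (adjusted p = 0.432).

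Among the collagens these proteins bind, 1 of 9 tested genes was called higher and 0 lower, with 8 log2 fold changes above 0 and a median of 0.71. The called gene was Col5a3, a chain of type V collagen, at 238 ± 66.5 CPM at P28 and 71.3 ± 19.4 CPM at P18 (log2 fold change 1.74 ± 0.27, edgeR adjusted p = 0.0180). Col5a3 no longer passed when P28 replicate 1 or 3 or P18 replicate 2 or 3 was left out (edgeR adjusted p up to 0.0738). It also missed the threshold with a block for the replicate number (0.0710). Of 10 tested genes for proteases known to cut SLRPs, 0 were called, with 7 above 0 and 3 below. Bmp1, which removes the propeptide of biglycan, lay at 440 ± 48.6 CPM at P28 and 275 ± 21.7 CPM at P18 without overlap (log2 fold change 0.68 ± 0.17, adjusted p = 0.0876), and the gelatinase gene Mmp9 had a log2 fold change of 4.40 ± 1.20 (adjusted p = 0.107). Mmp9 is also on the osteoclast list, and its level was carried by P28 replicate 1 (332 CPM) and P28 replicate 3 (448 CPM). The remaining P28 libraries, with 14.8 and 18.7 CPM, lay inside the P18 range of 1.26 to 25.7 CPM. Acp5 and Ctsk were highest in the same 2 libraries, P28 replicates 1 and 3. Of 14 tested signalling genes whose proteins SLRPs are known to bind, 0 were called, with 6 above 0 and 8 below. Tgfb1 and Vegfa, which encode growth factors, had log2 fold changes of 0.51 ± 0.21 and 0.77 ± 0.33 (adjusted p = 0.295 and 0.310). The background for these counts is the 0.936% of all genes called in either direction. In these pathway lists, Pxylp1, Chpf2 and Adamts4 (lower at P28) and Chst13 and Col5a3 (higher at P28) also had no overlap between the ages. Over all genes tested, 10.4% had none, in either direction.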

How the data were processed

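Per the labels' protocols, PDL was laser micro-dissected and libraries were made with a SMARTer Ultra Low input RNA kit. The authors deposited raw counts per gene symbol. The tools named, per the submitters' processing notes, were HTSeq 0.9.1, STAR 2.5.3a and edgeR 3.16.5, on build rn6; no source used here gives their roles, the annotation or the strand setting. The deposited normalized table was not used, nor were 40 columns of other samples. Counts were tested with edgeR 4.0.16 in R 4.3.3 (quasi-likelihood, 2-sided, TMM scaling, minimum count 10), with p-values adjusted by Benjamini-Hochberg over the 10472 genes tested. CPM are given ± SD, and log2 fold changes ± SE, taken from the F statistic. Ratios (pseudocount 0.5) were compared with exact permutation tests (scipy 1.17.1). The ratio of Aspn to Dcn was left out because Aspn lay at the floor, and shares per coding length were not computed. Named genes were all members, the called genes of each pathway list or otherwise the 2 with the lowest p, and the 5 genes nearest to Fmod in profile. The members, lists and tests were chosen with earlier results of these data known. Older symbols were matched through RefSeq (GRCr8). The fit was tested on simulated data, in which 3.94% of calls were of unchanged genes.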

Additional observations from a re-analysis of the deposited data

Results flagged for a closer look

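Of 26 groups of 4 libraries checked, 3 had 1 library far from the other 3; chance gives about 1 in 20. Prelp lay at 54.0 CPM in P28 replicate 4, against 21.4 to 26.4 CPM in the other P28 libraries. Dcn took 34.5% of the family's counts in P28 replicate 4, against 27.1% to 27.7% in the other P28 libraries. Prelp took 0.238% of the family's counts in P18 replicate 2, against 0.113% to 0.134% in the other P18 libraries. P28 replicate 4 was also the shallowest library and the one apart on the first principal component; the part of this in either value was not tested.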

How the results depend on the processing

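The call of Fmod and the lack of a call for Dcn, Bgn, Lum and Prelp held under all 7 alternatives other than leaving out a library (DESeq2 size factors, upper-quartile scaling, the DESeq2 Wald test, limma with voom and quality weights, filters of 1 count or of 10 counts in 4 libraries, and a replicate block). Over these the log2 fold change of Fmod was 2.94 to 3.39 (adjusted p up to 0.0368). The direction of Lum, near 0, turned with voom (-0.064) and with the replicate block (-0.0094). Leaving out 1 library, log2 fold changes ran from -0.20 to 0.17 for Lum, 0.27 to 0.57 for Dcn, 0.34 to 0.67 for Bgn, 0.28 to 0.92 for Prelp and 2.66 to 3.82 for Fmod, which was called in 4 of 8 fits. The differences in log2 ratio ran from 2.90 to 3.89 for Fmod to Lum and from -0.13 to 0.41 for Bgn to Dcn; 3 against 4 libraries cannot reach a p below 0.0571. The difference in the share of Fmod in the family ran from 1.86 to 2.14 percentage points, that of Lum from -9.25 to -5.02, and that of the family in the library from -0.09 to 0.15. Of all genes, 98 were called, 552 with the DESeq2 Wald test, 307 with voom, 26 with the replicate block, and 9 (without P18 replicate 2) to 215 (without P28 replicate 4) leaving out 1 library; the cause was not tested. The replicate numbers used for the block were not taken as a pairing of the animals. Deviations of same-numbered libraries correlated at -0.07 to 0.03 over 8518 genes, which cannot settle whether any animals were paired. With the block, Fmod had a log2 fold change of 3.39 (adjusted p = 0.0368), and the ratio of Fmod to Lum an adjusted sign-flip p of 0.250, where 4 pairs cannot go below 0.125 unadjusted. The alternatives for Col5a3, chosen after seeing the data, gave log2 fold changes of 1.61 to 1.93 leaving out 1 library, with 4 of 8 called. The same alternatives were added for the called marker genes. Depth limits what a count of 0 shows, since it allows up to 3 counts.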

Other observations

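A pair of count ratios was looked at after their values were seen, and neither was tested. Lum had 2.15, 2.29, 2.36 and 1.499 counts per Dcn count in P28 replicates 1 to 4, against 3.20, 2.36, 2.54 and 2.65 in P18 replicates 1 to 4, so that the highest P28 value and the lowest P18 value nearly met. Fmod had 15.7, 10.6, 18.1 and 5.62 counts per count of its neighbour Prelp in P28 replicates 1 to 4, against 1.74, 1.20, 0.746 and 5.38 in P18 replicates 1 to 4. P28 replicate 4 and P18 replicate 4 nearly met there.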
